A study of Brassica rapa subsp. pekinensis with 2 samples.

Results

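UDP-glycosyltransferases (UGTs) and glutathione S-transferases (GSTs) are 2 large plant enzyme families that attach a sugar or a glutathione to small molecules. To describe them, reference transcripts were taken whose deposited description contains the name of either enzyme, leaving out those described with anthocyanin, anthocyanidin or flavonol. This gave 221 transcripts, 132 UGTs and 89 GSTs, of 34213 mRNA transcripts (assembled transcripts that match the reference annotation) and 50834 transcripts in all. The study compared 1 library of anthers at mixed developmental stages (‘Ant’) with 1 library of seedlings that had 4 true leaves and were taken with roots, stems and leaves (‘Mix’). Both came from the doubled haploid Chinese cabbage line ‘FT’. The labels give vernalization at 4 °C for 20 days without telling the samples apart, and the methods of the study state it for the anther plants alone, so organ, plant age and vernalization cannot be told apart. With 1 library in each group there is no replicate error and no test, and every difference below is one between these 2 libraries. In such bulk samples, fewer cells of a type and less RNA per cell cannot be told apart.

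UGTs transfer glucose or another sugar from a UDP-sugar to a hydroxyl, carboxyl, thiol or amino group. In plants they inactivate or store hormones, and they finish the synthesis of glucosinolates, of phenylpropanoid esters and glucosides, and of pollen flavonoids. GSTs join glutathione to reactive compounds, and some of them carry or reduce small molecules instead. The plant-specific tau (U) and phi (F) classes hold most of the genes. Conjugates of either kind are moved into the vacuole or the cell wall, where glycosidases and peptidases can cut them again.

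Levels were compared as FPKM (fragments scaled to the transcript's length and to the size of the library), and a difference as the log2 ratio of Ant to Mix after adding 1 FPKM to both, which shrinks the differences of transcripts with low levels. A transcript passed the filter with at least 1 FPKM in either library, and was called higher or lower in Ant beyond a log2 ratio of 2 or -2. The libraries held 216371346 (Ant) and 190816341 (Mix) estimated counts, and a 500 kb window of A06 took 2.07% and 56.2% of them. Over the 17562 transcripts with at least 1 FPKM in both libraries the median log2 ratio was 0.54, and ratios below are as deposited, so that 0.54 is to be taken off for a change relative to the median transcript. Folds against a library at or under 6 estimated counts are given as lower bounds at that level. The tissue labels fitted their markers. All 4 polcalcins and all 7 anther-specific proteins had ratios above 0, with summed FPKM of 705 and 939 against 0.132 and 0.196 in Mix. Chlorophyll a-b binding proteins summed to 21.4 FPKM in Ant and 10374 in Mix, and 10 casparian strip proteins of the root were listed at 0 in Ant and summed to 23.5 in Mix.

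Both families split, with a few transcripts that were abundant in one library and nearly absent from the other. Of the 132 UGTs, 75 passed the filter. Among them 15 were higher in Ant (20.0%), beside 21.2% of all 19909 mRNA transcripts that passed. Another 11 UGTs were lower in Ant (14.7%), beside 9.48% of all mRNA transcripts. Of the 89 GSTs, 49 passed, 10 of them higher (20.4%) and 11 lower (22.4%). The median log2 ratio was 0.09 for UGTs and -0.20 for GSTs, beside 0.62 for all mRNA transcripts, and the UGT median turned to -0.45 after centring on the median transcript. That centring gave 14 higher and 19 lower UGTs and 7 higher and 17 lower GSTs, beside 15.2% higher and 14.7% lower among all mRNA transcripts.

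**Figure D1:**
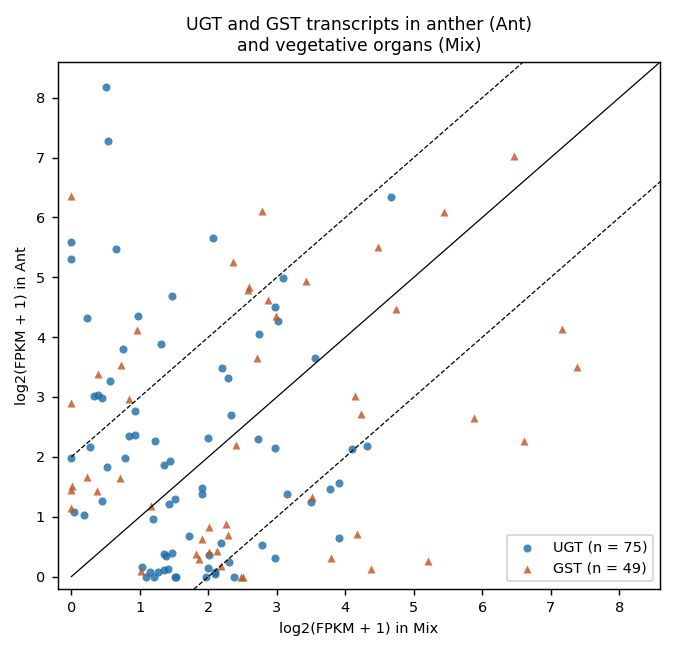
Each point is a transcript with at least 1 FPKM in either library, with log2(FPKM + 1) in Mix on the horizontal axis and in Ant on the vertical axis. The solid line marks equal levels and the dashed lines a log2 ratio of 2 and -2. The 75 UGTs (circles) reach 290.0 FPKM in Ant at the top left, and the 49 GSTs (triangles) reach 167 FPKM in Mix at the lower right.

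Summed over members, UGT levels were 1026 FPKM in Ant and 286 FPKM in Mix, and GST levels were 715 FPKM in Ant and 872 FPKM in Mix. Such sums are led by a few transcripts. Most members were low, and the median passing UGT had 2.62 FPKM in Ant and 1.76 FPKM in Mix. Among UGTs, 27 were listed at 0 in Ant (20.5%) and 8 in Mix (6.06%). Among GSTs, 13 were listed at 0 in Ant (14.6%) and 25 in Mix (28.1%). Of those 25, 22 were the theta-named transcripts described last. Of all mRNA transcripts, 10.9% were listed at 0 in Ant and 15.4% in Mix. No member hosted any of the 168 circular RNAs of the study.

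The UGT with the highest level and the largest ratio was BraA07g014730.3C (A07, 13396110 to 13398679, 2 exons), described as 85A3-like. It had 290.0 FPKM in Ant, above 99.4% of all mRNA transcripts, against 0.420 FPKM in Mix, a 690-fold higher level and a log2 ratio of 7.68. A second UGT85, the 85A5-like BraA08g026870.3C (A08, 19080229 to 19081856), had 43.2 FPKM in Ant and 0.565 FPKM in Mix, a 76.5-fold higher level. The others of this family that passed were lower in level. In Arabidopsis, UGT85A1 glucosylates zeatin-type cytokinins on the oxygen of the side chain, and 2 copies here carry its name. BraA07g014710.3C had 0.434 FPKM in Ant and 5.91 FPKM in Mix, and BraA07g014720.3C had 7.06 FPKM in Ant and 0.256 FPKM in Mix. These 2 copies therefore passed the cutoff in opposite directions, with log2 ratios of -2.27 and 2.68.

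UGT74 held copies higher in anthers and copies higher in seedlings, the latter at low levels, that are named after enzymes of the same hormone. In Arabidopsis, UGT74F1 and UGT74F2 glucosylate salicylic acid, a defence hormone. The 74F2-like BraA03g023060.3C (A03, 11079672 to 11083825, 4 exons) had 154 FPKM in Ant and 0.452 FPKM in Mix, a 341-fold higher level, and the 74F2-like BraA03g023080.3C had 19.1 FPKM in Ant and 0.173 FPKM in Mix. An assembled antisense transcript with 14.5 FPKM in Ant, listed at 0 in Mix, overlaps both, and its part in their values was not tested. The third 74F2-like copy, BraA03g023090.3C, had 0.269 FPKM in Ant and 1.61 FPKM in Mix. The copies named 74F1 and 74F2 outright lie side by side on A05. BraA05g003870.3C (74F1) was listed at 0 in Ant, with 4.16 FPKM in Mix, at least 207-fold lower, and BraA05g003860.3C (74F2) had 0.0350 FPKM in Ant and 3.29 FPKM in Mix, with a log2 ratio of -2.05. Of 5 copies, 2 were thus higher, 2 lower and 1 within the cutoff.

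The other UGT74 copies past the cutoff are named after glucosinolate enzymes. Glucosinolates are the sulfur-rich defence compounds of the cabbage family, and UGT74B1 and UGT74C1 of Arabidopsis add their glucose. All 3 copies were lower in Ant. UGT74C1 copy BraA04g022880.3C (A04, 16881920 to 16884091) reached 0.563 FPKM in Ant against 14.0 FPKM in Mix, and its second copy BraA05g012890.3C had 1.37 FPKM in Ant and 10.3 FPKM in Mix. The single 74B1 copy, BraA09g039260.3C (A09, 30809202 to 30810674), had 3.55 FPKM in Ant and 19.0 FPKM in Mix. Their log2 ratios were -3.27, -2.25 and -2.13. Of the remaining UGT74 members, UGT74E2 (BraA08g034260.3C), whose Arabidopsis counterpart glucosylates the auxin indole-3-butyric acid, had 8.94 FPKM in Ant and 3.86 FPKM in Mix. In all, 2 of the 10 UGT74 members that passed were higher (20.0%, beside 21.2% of all mRNA transcripts). Another 5 were lower (50.0%, beside 9.48%). The median log2 ratio of -1.57 stayed below 0 under the other scalings.

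Families that act on phenylpropanoids were also divided. UGT84A enzymes of Arabidopsis form glucose esters of sinapic and other hydroxycinnamic acids, and all 4 UGT84 members that passed had ratios above 0, although 1 of the 4 turned below 0 after centring and without the A06 window. The 84A3-like BraA01g021250.3C (A01, 11583158 to 11584609) had 19.5 FPKM in Ant and 0.967 FPKM in Mix, and the 84A2 BraA01g032130.3C (A01, 21921546 to 21923039) had 24.9 FPKM in Ant and 1.76 FPKM in Mix. Both were past the cutoff, with log2 ratios of 3.38 and 3.23. The 84A1 BraA03g046260.3C had 4.12 FPKM in Ant and 0.786 FPKM in Mix, and the 84A2-like BraA05g025550.3C had 2.62 FPKM in Ant and 1.55 FPKM in Mix. UGT72E enzymes of Arabidopsis glucosylate monolignols, the building blocks of lignin, and their named copies did not move alike. The UGT72E2-like BraA09g009450.3C had 8.65 FPKM in Ant and 0.478 FPKM in Mix, past the cutoff at 2.71. The UGT72E3 copy BraA07g017260.3C (A07, 14974001 to 14975449) had 3.39 FPKM in Ant and 16.1 FPKM in Mix. At -1.96 its log2 ratio stayed just inside the cutoff, which it passed at -2.50 after centring. The UGT72E1-like BraA01g022800.3C was listed at 0 in Ant, against 1.88 FPKM in Mix.

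UGT72B1 of Arabidopsis acts on chlorinated phenols and on monolignols. Of 4 copies that passed, BraA02g026630.3C (A02, 15996283 to 15997707) had 46.9 FPKM in Ant and was listed at 0 in Mix, at least 2569-fold higher in Ant. Near it, BraA02g026690.3C (A02, 16023061 to 16024509) was abundant in both libraries, with 80.0 FPKM in Ant and 24.4 FPKM in Mix, the highest UGT level in Mix. The 72B1 BraA09g000120.3C had 21.6 FPKM in Ant and 6.87 FPKM in Mix, and BraA03g029790.3C had 0.603 FPKM in Ant and 2.28 FPKM in Mix. UGT75B1, a glucosyltransferase of the cell plate in Arabidopsis, had 1 copy, BraA10g004380.3C (A10, 2302146 to 2303564), with 38.5 FPKM in Ant, while it was listed at 0 in Mix, at least 2100-fold higher in Ant. The 75D1-like copies differed in direction, since BraA01g021150.3C (A01, 11497066 to 11498499) had 0.245 FPKM in Ant and 6.88 FPKM in Mix, while BraA03g046300.3C had 13.8 FPKM in Ant and 1.48 FPKM in Mix.

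Brassinosteroids, cytokinins and abscisic acid are further hormones with named UGTs. UGT73C5 of Arabidopsis glucosylates brassinosteroids, and its 3 copies had unlike ratios. The 73C5-like BraA05g008520.3C (A05, 4435941 to 4437431) had 49.3 FPKM in Ant and 3.20 FPKM in Mix, past the cutoff at 3.58. It overlaps 3 assembled transcripts on its own strand, with up to 19.1 FPKM in Ant, and their part in its value was not tested. The 73C5 BraA03g019140.3C had 5.81 FPKM in Ant and 0.901 FPKM in Mix, and the neighbouring 73C5-like BraA05g008530.3C had 3.43 FPKM in Ant and 6.84 FPKM in Mix. The cytokinin N-glucosyltransferases 76C1 and 76C2 of Arabidopsis had 1 copy each. The 76C1 BraA10g028630.3C (A10, 18478139 to 18480645) had 1.77 FPKM in Ant and 12.6 FPKM in Mix, with a log2 ratio of -2.30, and the 76C2 BraA10g028620.3C had 1.61 FPKM in Ant and 2.75 FPKM in Mix. UGT71C5 and UGT71B6 of Arabidopsis glucosylate abscisic acid. The 71C5 BraA10g005910.3C had 0.182 FPKM in Ant and 3.92 FPKM in Mix, a log2 ratio of -2.06, and the 71B6 BraA05g025360.3C had 0.0487 FPKM in Ant and 1.39 FPKM in Mix.

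UGT71 as a family had no member above the cutoff (beside 21.2% of all mRNA transcripts) and 2 below it (14.3%, beside 9.48%). After centring or without the A06 window 5 were below it (35.7%), beside 14.7% and 17.2% of all mRNA transcripts. Its median log2 ratio over 14 members was -0.81, and it stayed below 0 under the other scalings. The 71B2-like BraA03g040000.3C (A03, 19853914 to 19855380) had 1.94 FPKM in Ant and 14.0 FPKM in Mix, while the 71B5-like BraA01g021380.3C (A01, 11695686 to 11697137) was close in both, with 11.5 FPKM in Ant and 10.8 FPKM in Mix. UGT79B6 of Arabidopsis adds the second sugar of the flavonoids of pollen, and its 2 tandem copies were low here. The 79B6 BraA03g014120.3C (A03, 6229569 to 6230912) had 2.94 FPKM in Ant and was listed at 0 in Mix, at least 152-fold higher in Ant, with a log2 ratio of 1.98 just inside the cutoff. The 79B6-like BraA03g014130.3C (A03, 6232951 to 6234270) had 2.54 FPKM in Ant and 0.429 FPKM in Mix.

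**Figure D2:**
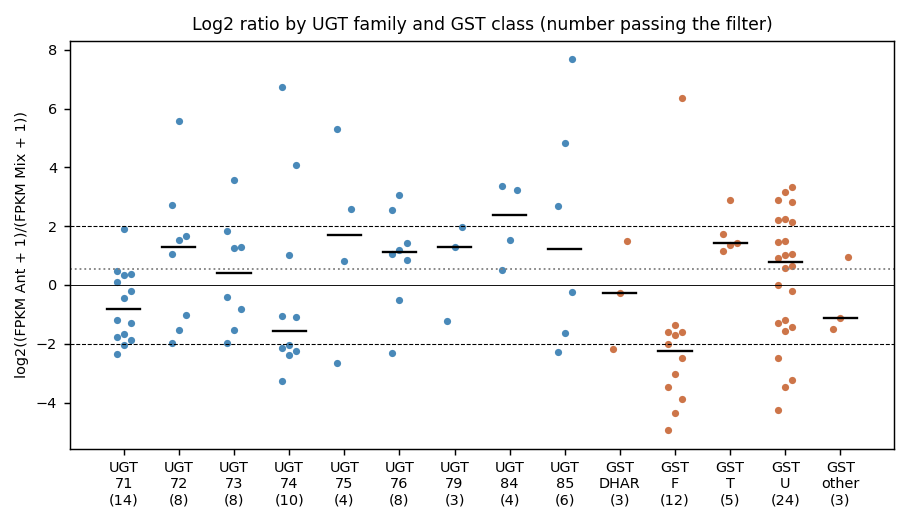
Log2 ratios of Ant to Mix for the UGT families and GST classes with at least 3 members passing the filter. Each point is a transcript, the black bar is the median, the dashed lines are at 2 and -2, and the dotted line is the median of all transcripts with at least 1 FPKM in both libraries, at 0.54. The phi class (GST F) has 11 of 12 points below 0.

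Phi GSTs were mostly lower in Ant, and they held the highest GST levels of Mix. Of 16 members 12 passed, 6 of them lower in Ant (50.0%, beside 9.48% of all mRNA transcripts) and 1 higher (8.33%, beside 21.2%). After centring 10 were lower (83.3%, beside 14.7%), and without the A06 window 11 were (91.7%, beside 17.2%). Under both of these scalings 1 was higher (8.33%), beside 15.2% and 16.3% of all mRNA transcripts. The class had a median log2 ratio of -2.25 as deposited, -2.79 after centring and -3.01 without the A06 window. The F9-like BraA04g022100.3C (A04, 16444706 to 16445563) reached 10.3 FPKM in Ant against 167 FPKM in Mix, a 16.2-fold lower level. The F8-like BraA03g024560.3C (A03, 12071877 to 12072906) had 16.5 FPKM in Ant and 142 FPKM in Mix, 8.58-fold lower. The F9 BraA03g016420.3C (A03, 7602021 to 7602889) had 3.79 FPKM in Ant and 96.3 FPKM in Mix, 25.4-fold lower. Each of these 3 was still above 3 FPKM in anthers, and the next 2 were below 1 FPKM. Beside F9 on the chromosome, the F10 BraA03g016430.3C (A03, 7604465 to 7605603) had 0.202 FPKM in Ant and 35.8 FPKM in Mix, 177-fold lower and the smallest ratio of all members, at -4.93. The F14 BraA09g009970.3C (A09, 5666528 to 5668456) had 0.243 FPKM in Ant and 12.9 FPKM in Mix, 53.0-fold lower. In Mix, each of these 5 transcripts lay above at least 91.2% of all mRNA transcripts.

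One phi GST went the other way. The F8 BraA05g000250.3C (A05, 132842 to 133657) had 80.9 FPKM in Ant, above 97.2% of all mRNA transcripts, and was listed at 0 in Mix, at least 2026-fold higher in Ant. F8 of Arabidopsis is a chloroplast GST induced by stress, and the F8-like copy above had the second highest phi level of Mix, so the copies described alike were abundant in opposite libraries. F9, F10 and F11 are linked to glucosinolate metabolism in Arabidopsis, as are U13 and U20. The F11 BraA05g041710.3C had 0.617 FPKM in Ant and 3.89 FPKM in Mix, and the U13-like BraA09g039000.3C had 5.30 FPKM in Ant and 57.6 FPKM in Mix. Of the 9 copies of these GSTs and of 74B1 and 74C1, a grouping made after their values were seen, 8 had ratios below 0, beside 37.8% of all mRNA transcripts that passed. The exception was the U20 BraA07g026620.3C.

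Tau GSTs were mixed. Of 36 members 24 passed, 7 of them higher in Ant (29.2%) and 4 lower (16.7%), beside 21.2% and 9.48% of all mRNA transcripts. The median log2 ratio was 0.80 as deposited, 0.26 after centring and -0.0047 without the A06 window. The U20 BraA07g026620.3C (A07, 20216945 to 20217907) was the most abundant GST of Ant, with 130 FPKM in Ant and 87.6 FPKM in Mix, and its ratio of 0.56 turned to -0.30 without that window. The U5 BraA03g024700.3C (A03, 12137501 to 12138259) had 68.1 FPKM in Ant and 5.88 FPKM in Mix, 11.6-fold higher. Tau transcripts named U16, U17 and U18 were all higher in Ant, at 37.2, 27.7 and 10.6 FPKM against 4.14, 5.02 and 0.660 FPKM in Mix. Both U26 copies were higher as well, and so was U4 (BraA04g021100.3C), with 6.80 FPKM in Ant and 0.787 FPKM in Mix. BraA06g012990.3C (A06, 6884863 to 6885645) reached 16.3 FPKM in Ant against 0.952 FPKM in Mix, and BraA08g029410.3C had 26.5 FPKM in Ant and 4.99 FPKM in Mix. After centring, 4 rather than 7 tau members were higher (16.7%, beside 15.2% of all mRNA transcripts).

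The tau GSTs that were lower in Ant were named U10, U12 and U13. The U12 BraA07g034810.3C (A07, 24700165 to 24701095) had 0.0900 FPKM in Ant and 19.7 FPKM in Mix, 219-fold lower, and the U12-like BraA07g034800.3C beside it had 0.640 FPKM in Ant and 17.1 FPKM in Mix. The U10-like BraA02g022390.3C was listed at 0 in Ant, with 4.57 FPKM in Mix, at least 124-fold lower. The third of that A07 group, the U11-like BraA07g034830.3C, was abundant in both, with 67.4 FPKM in Ant and 42.4 FPKM in Mix.

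**Figure D3:**
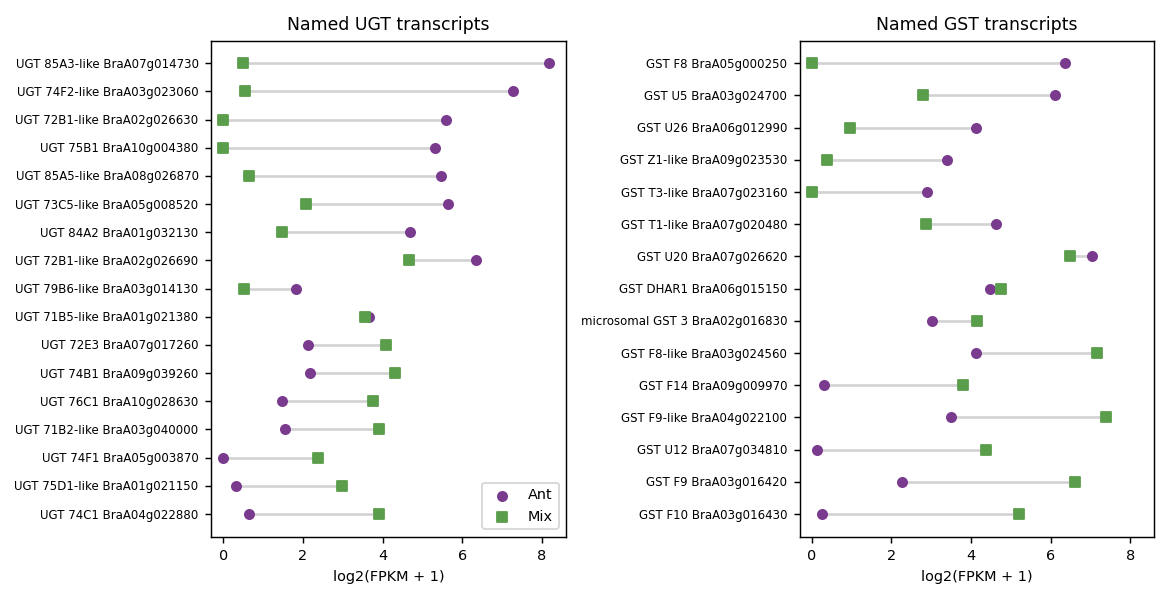
Levels of the named UGTs (left) and GSTs (right) as log2(FPKM + 1), ordered by log2 ratio with the highest at the top. Circles are Ant and squares Mix, and a grey line joins the 2 libraries. At the top the UGT 85A3-like stands at 290.0 FPKM in Ant and 0.420 in Mix, and at the bottom the phi GST F10 stands at 0.202 in Ant and 35.8 in Mix.

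The smaller classes had few members. Theta T1-like GSTs had 2 copies, BraA07g020480.3C (A07, 16993620 to 16995005, 7 exons) with 23.5 FPKM in Ant and 6.32 FPKM in Mix, and BraA04g013850.3C with 19.5 FPKM in Ant and 6.95 FPKM in Mix. Both stayed within the cutoff. Zeta GSTs isomerize maleylacetoacetate in the breakdown of tyrosine, and the Z1-like BraA09g023530.3C (A09, 15753615 to 15755159, 8 exons) had 9.49 FPKM in Ant and 0.312 FPKM in Mix, 30.4-fold higher and past the cutoff. An assembled isoform of that gene had 17.7 FPKM in Ant and 3.65 FPKM in Mix, more than the reference transcript in both libraries. Dehydroascorbate reductases (DHAR) use glutathione to recycle vitamin C. The DHAR1 BraA06g015150.3C (A06, 8109242 to 8110068) reached 21.2 FPKM in Ant against 25.7 FPKM in Mix, and the DHAR1-like BraA08g028190.3C had 29.7 FPKM in Ant and 9.80 FPKM in Mix. The DHAR3 transcript past the cutoff, at 1.505 FPKM in Ant and 10.4 FPKM in Mix, was a 150-nt single exon, and a 6-exon antisense transcript with 5.15 FPKM in Ant and 15.7 FPKM in Mix overlaps it. Microsomal GST3 copies, a membrane family unrelated to the soluble classes, stayed within the cutoff, and the copy with the highest mean level, BraA02g016830.3C (A02, 9006137 to 9006886), had 7.12 FPKM in Ant and 16.6 FPKM in Mix.

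Some names were not carried by the other deposited annotation. Of the UGTs, 18 lacked the deposited term for UDP-glycosyltransferase activity, among them all 6 UGT79 members and 3 copies named 85A3-like or 85A5-like. Of the 18, 9 passed the filter and 2 were called, an 85A3-like and an 85A5-like copy. Both were higher in Ant (22.2%, beside 21.2% of all mRNA transcripts). The DHAR3 fragment carries an enzyme code of another class. The 25 transcripts described as T2-like (6) or T3-like (19) were the only GSTs without the deposited term for glutathione transferase activity, which 64 GSTs carry. They were 165 to 1224 nt long. Of these 25, 24 were above 0 in Ant and 3 in Mix, at levels so low that 3 passed the filter, and 15.4% of all mRNA transcripts were above 0 in Ant and listed at 0 in Mix. The highest, BraA07g023160.3C (A07, 18501440 to 18502270), had 6.47 FPKM in Ant and was listed at 0 in Mix, and a transcript of the opposite strand with 18.7 FPKM in Ant, also listed at 0 in Mix, overlaps it. The part of that transcript was not tested. Without these 25, 9 GSTs were higher (19.6%, beside 21.2%) and 11 lower (23.9%, beside 9.48%), with a median log2 ratio of -0.59.

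The number of exons was mostly shared within some families and classes and divided in others. Of the 132 UGTs, 71 had 1 exon and 47 had 2, and all 12 UGT72 and 9 UGT84 members had 1 exon, while 9 of 12 UGT74 and 8 of 9 UGT85 members had 2. Divided families were UGT73, with 13 of 19 members at 1 exon and 6 at 2, and UGT79, with 4 of 6 at 1 and the others above 2. Among GSTs, 32 of 36 tau members had 2 exons and 14 of 16 phi members had 3.

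Many members lie in arrays of neighbouring copies, which makes it possible to ask whether copies side by side had the same direction. With at most 20 kb between neighbours there were 26 UGT arrays with 67 members and 9 GST arrays with 27. Among 15 adjacent UGT pairs that both passed the filter, 10 had deposited ratios of the same sign (66.7%). Among 10 GST pairs 6 did (60.0%), beside 55.9% of 11342 adjacent pairs of mRNA transcripts. Member pairs may have other genes between them, while mRNA pairs are immediate neighbours, so the pairs are not of the same kind. In 1 UGT pair and no GST pair the copies were past the cutoff in opposite directions, beside 413 mRNA pairs (3.64%).

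That pair belonged to the A07 array of UGT85, 12.8 kb long (A07, 13385901 to 13398679). Its 3 copies, in order, had 0.434, 7.06 and 290.0 FPKM in Ant and 5.91, 0.256 and 0.420 FPKM in Mix, so the first was the seedling copy and the others the anther copies. The A03 array of 74F2-like copies had 154, 19.1 and 0.269 FPKM in Ant and 0.452, 0.173 and 1.61 FPKM in Mix. In the A06 tau array, U24, U25-like and U26 had 0.551, 0.781 and 16.3 FPKM in Ant and 2.76, 3.03 and 0.952 FPKM in Mix. By contrast, U19, U20 and U22 of an A07 array had 44.7, 130 and 3.61 FPKM in Ant and 21.3, 87.6 and 4.30 FPKM in Mix, and the order of the copies was the same in both libraries. Copies of an array can be alike in sequence, and how shared reads were divided among them was not given, so the level of a single copy is uncertain.

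**Figure D4:**
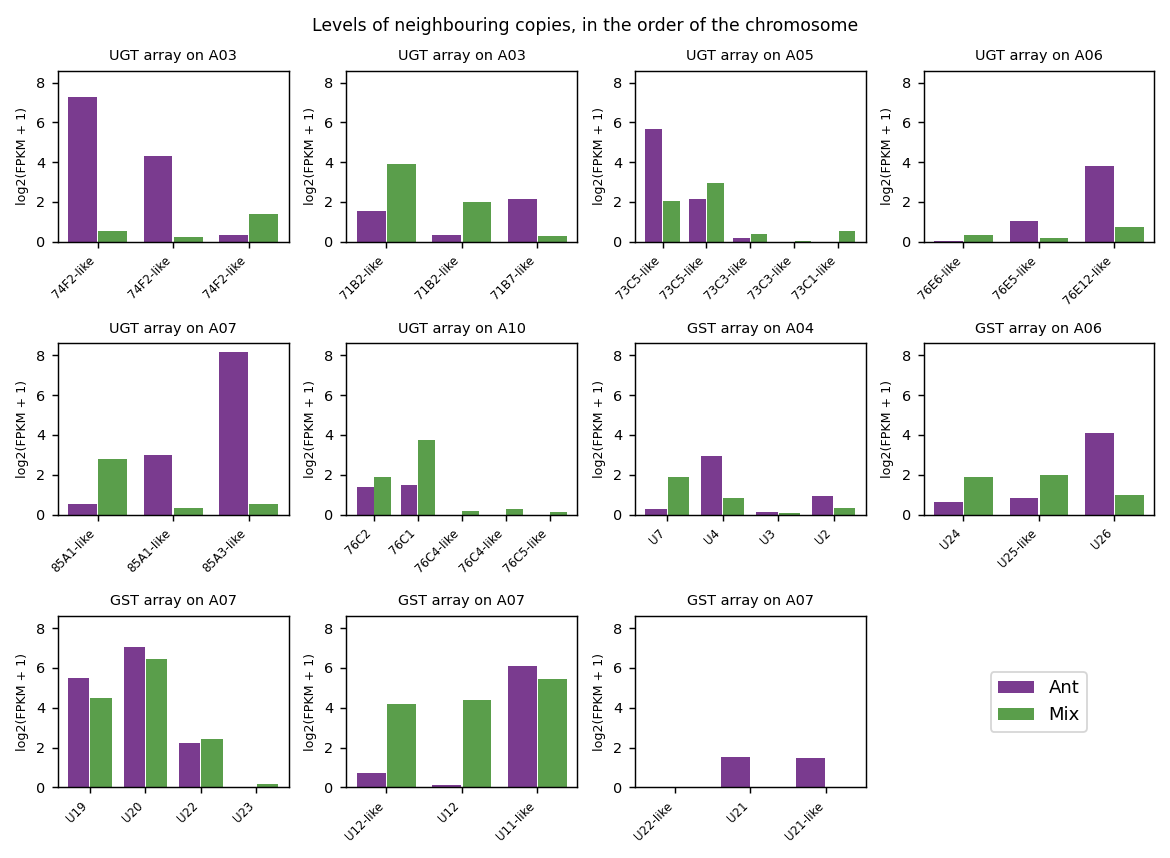
Arrays with at least 3 members of which at least 2 passed the filter, with the copies in chromosomal order and bars of log2(FPKM + 1), Ant left of Mix. In the UGT85 array on A07 the first copy stands higher in Mix and the third reaches 290.0 FPKM in Ant.

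To set the members beside the enzymes that supply and use their substrates, genes of connected pathways were counted from their descriptions. UDP-sugar supply, which covers UDP-glucose pyrophosphorylases, sucrose synthases and UDP-glucose dehydrogenases, had 11 of 16 transcripts passing, 4 of them higher in Ant (36.4%, beside 21.2% of all mRNA transcripts) and none lower. After centring and on totals that leave out the A06 window, 2 were higher, beside 15.2% and 16.3% of all mRNA transcripts. Its median log2 ratio of 0.58 was below the 0.62 of all mRNA transcripts and turned to -0.28 without the A06 window. UTP--glucose-1-phosphate uridylyltransferase 1, which makes UDP-glucose, had 102 FPKM in Ant and 10.7 FPKM in Mix (BraA03g007910.3C). Sucrose synthase 3, which frees UDP-glucose from sucrose, had 20.1 FPKM in Ant and 0.142 FPKM in Mix (BraA09g001880.3C).

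Glutathione synthesis and recycling had 3 of 6 transcripts passing, 1 lower (33.3%, beside 9.48% of all mRNA transcripts) and none higher (beside 21.2%). Glutamate--cysteine ligase, the first step of glutathione synthesis, had 71.1 FPKM in Ant and 47.6 FPKM in Mix from BraA01g013720.3C, and its second copy BraA03g050750.3C had 0.000241 FPKM in Ant and 4.58 FPKM in Mix. Glutathione peroxidases, which reduce lipid peroxides, had 4 of 9 passing transcripts higher (44.4%, beside 21.2%) and 1 lower (11.1%, beside 9.48%). These numbers were unchanged under both other scalings. All mRNA transcripts had 15.2% higher and 14.7% lower after centring, and 16.3% and 17.2% without the A06 window. The peroxidase 7 transcript (BraA03g057030.3C) had 99.0 FPKM in Ant and 1.02 FPKM in Mix, and the peroxidase 1 transcript (BraA09g053340.3C), described as chloroplastic as well, had 3.03 FPKM in Ant and 80.4 FPKM in Mix.

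Gamma-glutamyltranspeptidases, which start the breakdown of glutathione conjugates, had 1 of 4 passing transcripts higher and 1 lower. These were 25.0% each, beside 21.2% higher and 9.48% lower among all mRNA transcripts. The 1-like BraA01g000550.3C had 73.7 FPKM in Ant and was listed at 0 in Mix, and the nearby copy BraA01g000570.3C had 0.424 FPKM in Ant and 8.75 FPKM in Mix. ABC transporters of the C family, which pump conjugates into the vacuole, had 1 of 13 higher and 1 lower (7.69% each). Beside them, 21.2% of all mRNA transcripts were higher and 9.48% lower. ABCC8 (BraA05g025840.3C) had 23.3 FPKM in Ant and 1.25 FPKM in Mix, and ABCC14 (BraA09g052000.3C) had 3.51 FPKM in Ant and 17.6 FPKM in Mix. Beta-glucosidases, which remove the sugar again, had 3 of 13 higher and 1 lower once the 64 endo-1,3-beta-glucosidases that share the word were set apart. The shares were 23.1% and 7.69%, close to those of all mRNA transcripts. Beta-glucosidase 20 (BraA02g023150.3C) had 156 FPKM in Ant and was listed at 0 in Mix, and beta-glucosidase 44 (BraA01g034680.3C) had 1.15 FPKM in Ant and 17.3 FPKM in Mix.

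**Figure D5:**
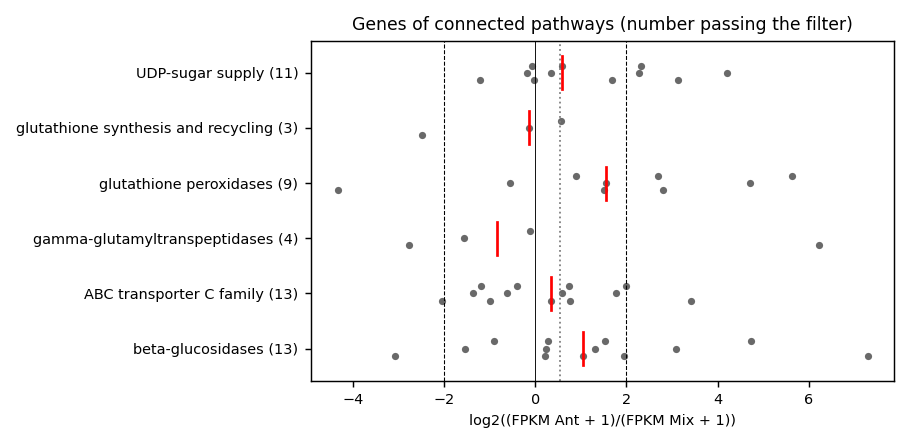
Log2 ratios of Ant to Mix in pathways connected to the 2 families, with 1 point for each transcript that passed the filter, a red bar at the median, dashed lines at 2 and -2 and a dotted line at 0.54. Glutathione peroxidases run from -4.34 to 5.63, and gamma-glutamyltranspeptidases from -2.78 to 6.22.

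Some transcripts that carry the same deposited activity terms lie outside the name rule. Of 21 others with the UDP-glycosyltransferase term, 7 are sucrose synthases already counted above, 4 are galactolipid or sulfolipid synthases, and 10 carry other or uninformative descriptions. Among those 10, 4 passed the filter, 1 higher in Ant (25.0%, beside 21.2% of all mRNA transcripts) and none lower (beside 9.48%). The higher one was the UDP-glucosyl transferase 73B2-like BraA08g016150.3C, with 62.8 FPKM in Ant and 2.28 FPKM in Mix. The glutathione transferase term was carried by 6 other transcripts, of which 2 passed. Of these 2, 1 was lower (50.0%, beside 9.48%) and none higher (beside 21.2%).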

How the data were processed

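The authors trimmed the reads of 2 ribosome-depleted, stranded RNA libraries, mapped them to Brassica rapa v3.0 and assembled transcripts with StringTie, and the submitters' processing notes also name HISAT2 and TopHat. Per the file headers, the deposited linear table gives FPKM and estimated counts of each transcript in Ant and Mix. The estimated counts are whole numbers proportional to FPKM times length, and 1 such count is less than 1 read, so no counting interval was computed. The tool that gave FPKM (Ballgown or Cuffdiff) and the strand setting are not given unambiguously in the sources used here, and genes that overlap or resemble each other may share reads. The deposited counts of back-spliced junction reads served only to look for hosts of circular RNAs.

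Python 3.11.15 with pandas 2.3.3 and NumPy 2.4.6 computed log2((FPKM Ant + 1)/(FPKM Mix + 1)), with a filter of at least 1 FPKM in either library and a cutoff of 2, the fold that the study used for mRNA. The p-value of the study was not applied. A run on simulated transcripts used only high levels and changes far past the cutoff, so it cannot tell how calls behave at low levels. Members and lists were chosen with earlier results of these data known. Named members were, among UGTs and among GSTs, the 5 largest and 5 smallest ratios, the 3 highest levels in each library and the most abundant member of each family with at least 3 passing, and copies of enzymes of hormones, monolignols, glucosinolates or pollen flavonoids were named together. Tandem neighbours of named members, tau GSTs past the cutoff, pathway examples and the floor of 6 estimated counts were chosen after values were seen. Alternatives were a pseudocount of 0.1 or 0.01, no filter or a filter of 5, centring on the median transcript, library totals without the 500 kb window with most counts in Mix, adding assembled isoforms of the same gene (class j), and a cutoff of 1. No genome or sequence table was used here.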

Additional observations from a re-analysis of the deposited data

Results flagged for a closer look

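Assembled transcripts at the members' loci were not part of the comparisons above. Of 23 assembled isoforms (class j, sharing a splice junction with a member gene), 20 were above 6 estimated counts in Ant and 18 in Mix. Adding them to their genes changed the call of 7 members. The number passing the filter went from 75 to 77 UGTs and from 49 to 53 GSTs. Those higher in Ant went from 15 to 16 UGTs and from 10 to 13 GSTs, and 11 of each stayed lower. On the strand opposite a member, 7 transcripts whose span overlaps that of the member were above that level in at least 1 library. The one most abundant in Ant, with 19.1 FPKM in Ant and 1.53 FPKM in Mix, spans the 73C3-like BraA05g008540.3C (A05, 4440426 to 4441918). Its 2 exons total 1394 nt over 4435941 to 4446377, so that copy lies inside its intron. The same transcript overlaps the 73C5-like BraA05g008520.3C on the same strand.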

How the results depend on the processing

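No paired analysis was possible because each group held 1 library, and for the same reason no replicate was left out. As reported, 15 UGTs and 10 GSTs were higher in Ant and 11 of each lower. With a pseudocount of 0.1 FPKM, 24 UGTs were higher, and 29 UGTs and 20 GSTs lower. With 0.01 FPKM, 25 UGTs were higher, and 29 UGTs and 20 GSTs lower. With a cutoff of 1, 31 UGTs and 19 GSTs were higher, and 28 UGTs and 22 GSTs lower. Centring on the median transcript gave 19 lower UGTs (25.3%) and 17 lower GSTs (34.7%), beside 14.7% of all mRNA transcripts. Totals without the A06 window gave 19 of each (25.3% and 38.8%), beside 17.2%. A filter of 5 FPKM left 7 lower UGTs. A smaller pseudocount or cutoff raises the calls of any set of transcripts. The shares over all mRNA transcripts at the other pseudocounts, filter and cutoff are not given here, so those counts cannot be set against them.

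The median log2 ratio of UGTs (0.09) was -0.11 with no filter, 1.60 with a filter of 5 FPKM, -0.45 after centring and -0.73 without the A06 window. That of GSTs (-0.20) was 0.042 with no filter, 0.94 with a filter of 5 FPKM, 0.31 with class j isoforms added, -0.74 when centred and -0.95 on totals that leave out the A06 window. The causes were not tested, other than that a filter changes which transcripts are counted. Taking lower bounds for members with 6 or fewer estimated counts in a library left both medians as they were and moved that of phi GSTs to -2.51. Of the 32 named members, 28 kept their direction and side of the cutoff under all 7 alternatives that apply to them. Leaving out the filter or raising it to 5 FPKM cannot change the ratio of a single transcript. Adding class j isoforms can change only members that have one. The direction changed in 3 cases, for BraA01g021380.3C (-0.45 when centred, -0.73 on totals that leave out the A06 window) and for BraA07g026620.3C on those totals (-0.30). The alternative without the theta-named members was chosen after seeing the data.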
